A study of Homo sapiens with 4 samples.

Results

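This report describes 10 genes of the actin filament among the 17755 genes of an RNA-Seq table from human melanoma cells. They are the tropomyosins TPM1, TPM2, TPM3 and TPM4, the cytoplasmic actins ACTB and ACTG1, the alpha-actinins ACTN1 and ACTN4, the myosin light chain gene MYL9 and the transgelin gene TAGLN. The set was selected on its measured values: the level of TPM4 was known to be about 3 times as high with siLINC00622 as with siNC in both cell lines, and the other 9 genes were placed beside it for their roles at the filament. The difference between siLINC00622 and siNC is therefore given as a description, without a test. SK-MEL-28 and A375 are established human melanoma cell lines. Each was transfected with siLINC00622, an siRNA that targets the long noncoding RNA LINC00622, or with the control siNC, kept for 6 h without serum and then for 24 h in medium with 10% serum. RNA enriched for poly(A) was sequenced in 4 libraries, 1 per line and treatment, so neither difference between treatments has a replicate. The labels name melanoma tissue as the source beside each line, and the cells were cultured.

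Actin is a protein whose monomers assemble into polar filaments, which give a cell its shape and carry its movement. Tropomyosins are coiled-coil dimers that lie end to end along the filament and set which other proteins, among them myosin, cofilin and alpha-actinin, can bind there. Mammals have 4 tropomyosin genes, each with several splice forms, and non-muscle cells use mixtures of them on different filaments. Alpha-actinins crosslink filaments, MYL9 encodes a regulatory light chain of myosin II, and transgelin is a small actin-binding protein best known from smooth muscle. Many of these genes carry a CArG box, the element that serum response factor (SRF) binds.

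TPM4, which encodes a tropomyosin of non-muscle cells, is annotated at chr19:16067021-16103005 on the plus strand (GRCh38, GENCODE 29). A script searched the RefSeq promoter windows (GRCh38.p14), each 250 bases before to 50 bases after a transcription start, for the CArG box on both strands. Windows were found for 7 of the 10 genes, 15 windows in all. ACTB, MYL9 and TAGLN had no window, so they were not searched. The box was in a window of 3 of these 7 genes, TPM4, ACTG1 and ACTN1, and in 1.29% of all 35116 windows (438 of 27305 genes, or 1.60%). For TPM4 it was in the first of 3 windows only, and which start these cells used is not known. The stretches that hold the box in these 3 genes are shown, and capitals mark the box.
TPM4, chr19:16067328-16067537, plus strand, bases 210 to 1 before the start, box 173 to 164 bases before it: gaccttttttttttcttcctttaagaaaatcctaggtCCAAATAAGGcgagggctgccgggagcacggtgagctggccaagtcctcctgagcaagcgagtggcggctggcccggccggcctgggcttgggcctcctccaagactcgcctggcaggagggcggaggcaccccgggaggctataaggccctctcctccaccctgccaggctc
ACTG1, chr17:81512859-81512918, minus strand, box 94 to 85 bases before the start: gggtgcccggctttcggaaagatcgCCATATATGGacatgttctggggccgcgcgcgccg
ACTN1, the third of 4 windows, chr14:68977703-68977762, minus strand, box 171 to 162 bases before the start: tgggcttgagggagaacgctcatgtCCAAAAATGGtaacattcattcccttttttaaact
A match to the box describes the letters only. The ratios of ACTG1 and ACTN1, given further on, were not like that of TPM4 in either line. Whether the box has a part in any of these ratios was not tested.

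The siRNA pair against LINC00622 is also shown, by target sequence, since an siRNA can act on other transcripts through positions 2 to 8 of its guide strand. Capitals mark the site that these positions would pair with. Which of the pair was used for the libraries is not given in the sources used here.
siLINC00622_1: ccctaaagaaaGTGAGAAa
siLINC00622_2: ggcaacctctaATTGACTt
The first site is in the longest annotated 3′ UTR of 16.4% of 11812 genes, and the second in that of 12.7%. Neither is in that of TPM4. Among the 10 genes, ACTG1 carries the first site, once, and none carries the second. The search covers letters only, and whether either siRNA changed TPM4 or other transcripts, directly or indirectly, was not tested.

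Counts of LINC00622 itself were 309, 135, 135 and 86 in the order SK-MEL-28 siNC, SK-MEL-28 siLINC00622, A375 siNC and A375 siLINC00622, which is kept wherever 4 values stand in a row. It was thus lower with siLINC00622 in both lines. For SK-MEL-28 the log2 ratio was -1.21 (95% counting interval -1.53 to -0.93), and for A375 -0.84 (-1.27 to -0.46). Throughout, a log2 ratio is siLINC00622 over siNC, on counts scaled within each line by the TMM method of edgeR with a prior count of 2, and its interval covers counting error only. Where a pair of ratios is given, SK-MEL-28 comes first.

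The libraries held between 31269923 and 36384819 counts, of which 99.7% to 99.8% fell on listed genes, and the 10 genes took 1.04% to 1.07% of each. All 10 passed the count filter (10 counts or more in either library of a line) in both lines. The 8 melanocytic markers (MITF, PMEL, MLANA, TYR, DCT, TYRP1, SOX10 and S100B) were all listed, with a summed level of 8644 and 9076 CPM (counts scaled to the library total) in SK-MEL-28 and 548 and 675 CPM in A375. PMEL, a pigment granule protein, had 114297, 142181, 257 and 314 counts. SOX10, a factor of the neural crest lineage, was high in both, with 20638, 20943, 15109 and 22107 counts. Both lines thus carried lineage markers, and A375 had few counts of the pigment genes. Of the 8 markers, 1 was past 1.5-fold lower in SK-MEL-28, beside 6.49% of all genes. In A375, 1 was past it higher and 1 lower, beside 4.52% and 4.34% of all genes. The lower gene in A375 was TYRP1, with 13 and 6 counts there. The interval of its log2 ratio, -3.01 to 0.17, includes 0. S100B, a calcium-binding protein gene, had 8775, 5970, 313 and 552 counts, with log2 ratios of -0.59 (-0.63 to -0.54) and 0.61 (0.41 to 0.81). Of the markers of other cell types, 2 of 7 for fibroblasts, 2 of 6 for smooth muscle and 2 of 5 for keratinocytes were listed. Their summed levels were 19.3 to 26.3 CPM, 52.0 to 96.4 CPM and 41.3 to 70.7 CPM over the 4 libraries. LUM, a proteoglycan gene of the fibroblast list, had 803, 892, 187 and 372 counts, with log2 ratios of 0.12 (-0.02 to 0.26) and 0.78 (0.53 to 1.04). PDGFRB, the other listed fibroblast gene, had 2, 5, 416 and 547 counts, lower in SK-MEL-28 where LUM was higher. Of the keratinocyte genes, KRT14 had 6, 2, 494 and 504 counts and KRT10 had 1361, 1432, 1702 and 2069. The part of these markers in the results was not tested.

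**Figure D1:**
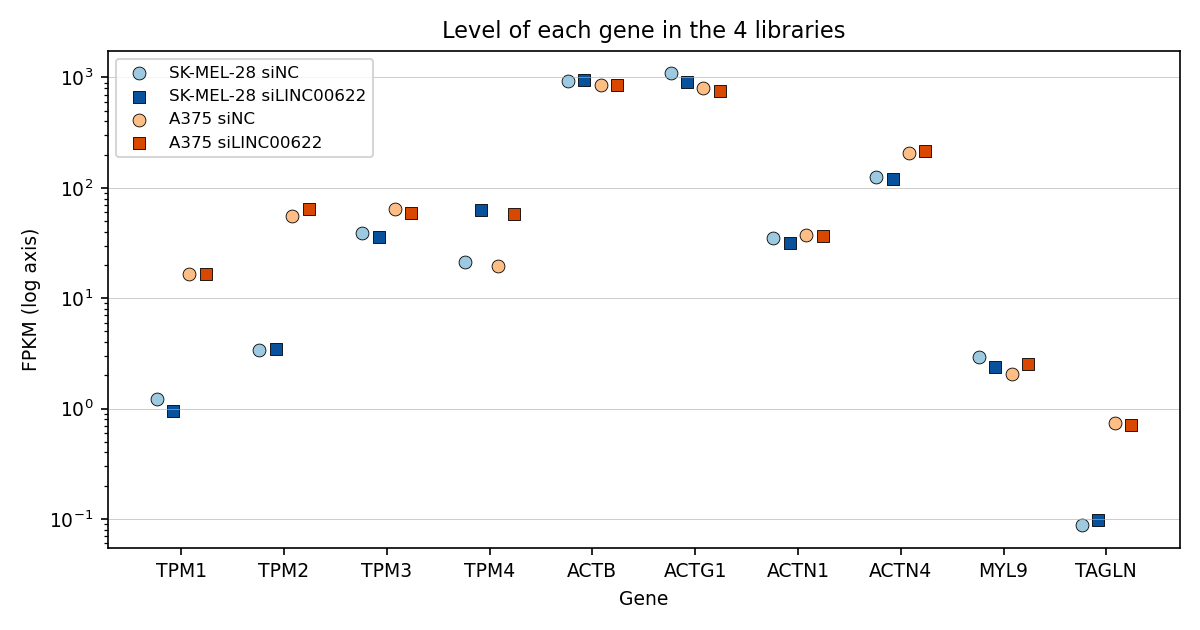
Level of each of the 10 genes in the 4 libraries, as deposited FPKM (fragments scaled by gene length and library size) on a log axis, with 1 point per library. ACTB and ACTG1 sit between 750 and 1090 FPKM, TPM4 is the gene whose siLINC00622 points (squares) stand apart from the siNC points (circles) in both lines, and TPM1, TPM2 and TAGLN are far lower in SK-MEL-28 than in A375.

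Counts of TPM4 were 8761, 26671, 7617 and 25915. The siNC libraries of the lines were close to each other, and so were the siLINC00622 libraries. In FPKM, which the authors scaled by gene length and library size, the level of TPM4 went from 21.4 to 63.1 in SK-MEL-28 and from 19.7 to 57.6 in A375. The scaled counts were 2.98-fold and 2.94-fold higher with siLINC00622, which gives log2 ratios of 1.57 (1.54 to 1.61) and 1.56 (1.52 to 1.59). These ratios are what the gene was chosen by. In RNA from a whole culture, a change in the share of cells that carry a transcript and a change in its amount per cell cannot be told apart.

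Among the 5771 genes that reached 1000 counts in each line, TPM4 had the highest ratio in both. By FPKM, whose order between genes depends on the lengths used, it stood at rank 2165 of 17755 genes in the siNC library of SK-MEL-28 and at rank 595 in the siLINC00622 library. The ranks in A375 were 2369 and 632. It thus stood nearer the top in both siLINC00622 libraries. Since TPM4 was chosen by this difference, these ranks restate the choice and are a description.

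No listed pseudogene is named for TPM4. A gene on the opposite strand, AC008894.3, overlaps it, and the library kit is not stated to mark strand. That gene had 25, 37, 57 and 58 counts, far fewer than TPM4.

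The 3 other tropomyosins did not share the size of this difference. TPM3 (chr1:154155304-154194648, minus strand), a tropomyosin found in most cells, had 19358, 18607, 30377 and 32855 counts. Its log2 ratio was -0.09 in SK-MEL-28 (-0.12 to -0.06) and -0.10 in A375 (-0.12 to -0.07). TPM3 was thus slightly lower in the siLINC00622 library of each line, at 0.941 and 0.935 of the siNC level. With the counts of its listed copies TPM3P6 and TPM3P9 added, the log2 ratios were again -0.09 and -0.10.

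TPM1 (chr15:63042632-63071915, plus strand), a major tropomyosin of muscle and of stress fibres, had 554, 448, 7135 and 8227 counts. In SK-MEL-28 the log2 ratio was -0.34 (-0.52 to -0.16), and in A375 it was -0.0041 (-0.05 to 0.04). TPM2 (chr9:35681992-35690121, minus strand), the beta-tropomyosin gene, had 355, 377, 5564 and 7512 counts. Its log2 ratio was 0.06 in SK-MEL-28 (-0.16 to 0.27), where the interval includes 0, and 0.22 in A375 (0.17 to 0.27). Neither gene moved the same way beyond counting error in both lines.

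Summed over TPM1, TPM2 and TPM3, the counts were 20267, 19432, 43076 and 48594, with log2 ratios of -0.09 (-0.12 to -0.06) and -0.04 (-0.05 to -0.02). With TPM4 added, the sums were 29028, 46103, 50693 and 74509, with log2 ratios of 0.64 and 0.35. The excess of tropomyosin transcripts in the siLINC00622 libraries thus lay with TPM4.

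The summed FPKM of the 4 tropomyosin genes was 64.5, 103, 156 and 198, which was 1.60-fold and 1.27-fold higher with siLINC00622. The share of each gene in this pool needs no scaling between libraries. TPM4 made up 33.1% of the pool in SK-MEL-28 with siNC and 61.0% with siLINC00622, and 12.6% and 29.0% in A375. It passed TPM3 as the leading tropomyosin transcript of SK-MEL-28, where the share of TPM3 went from 59.8% to 34.7%. In A375, TPM2 at 32.7% and TPM3 at 30.0% were still above TPM4 in the siLINC00622 library by FPKM.

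These shares depend on the gene length that is used. The lengths behind the deposited FPKM (12.4 kb for TPM4, 15.2 kb for TPM3, 13.8 kb for TPM1 and 3.18 kb for TPM2) are far above those of the longest principal transcripts (2.54, 1.52, 1.05 and 1.39 kb). Per kilobase of those transcripts, TPM4 had 20.4%, 44.9%, 8.89% and 22.7% of the pool, which left TPM3 ahead in every library, at 47.9% to 75.0%. In the siLINC00622 library of A375, TPM4 was above TPM2 on that scale (22.7% against 12.0%) and by CPM (34.8% against 10.1%). The share of TPM4 was higher with siLINC00622 in both lines by each of these measures, and its order with TPM2 and TPM3 was not fixed.

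**Figure D2:**
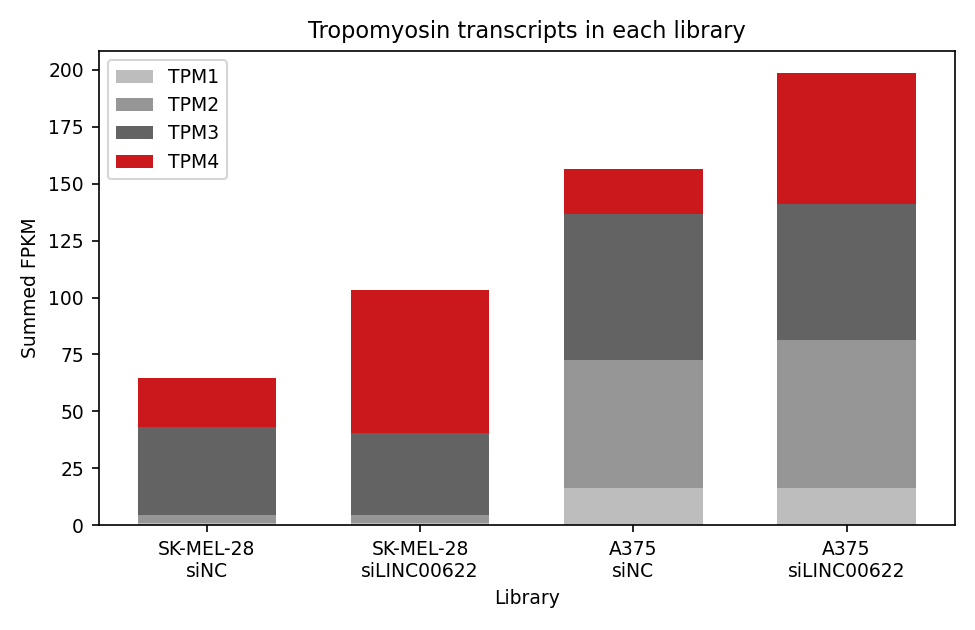
Summed FPKM of the 4 tropomyosin genes in each library, as stacked bars with 1 library per bar and an axis that starts at 0. The part of TPM4 grows from 21.4 to 63.1 FPKM in SK-MEL-28 and from 19.7 to 57.6 FPKM in A375, while TPM1 to TPM3 together go from 43.2 to 40.4 FPKM and from 137 to 141 FPKM.

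The actin genes, which encode the filament that the tropomyosins coat, stayed near their siNC level. ACTB (chr7:5527147-5563784, minus strand), the beta-actin gene, had 134377, 143236, 117544 and 138007 counts, with log2 ratios of 0.06 (0.05 to 0.07) and 0.02 (0.01 to 0.03). ACTG1 (chr17:81509971-81523847, minus strand), the gamma-actin gene, had 146254, 125904, 101571 and 110590 counts. Its log2 ratio was -0.25 in SK-MEL-28 (-0.26 to -0.24) and -0.09 in A375 (-0.10 to -0.07). ACTG1 was thus at 0.842 and 0.942 of its siNC level, and ACTB at 1.04 and 1.02.

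The coding parts of these genes are near identical, and how the authors' counting split reads between them is not known. Their sum had log2 ratios of -0.09 (-0.10 to -0.08) and -0.03 (-0.04 to -0.02), so the actin transcripts together were slightly lower in both lines. The ratio of ACTB to ACTG1 in FPKM was 0.845, 1.05, 1.06 and 1.15. It was higher with siLINC00622 in both lines. Adding the 8 listed pseudogene copies of the actins left every actin ratio at the same value to 2 decimals.

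The alpha-actinin genes, whose products crosslink filaments at adhesions and along stress fibres, differed little. ACTN1 (chr14:68874143-68979440, minus strand) had 16758, 15490, 16773 and 19050 counts, with log2 ratios of -0.14 (-0.18 to -0.11) and -0.03 (-0.06 to 0.0041). ACTN4 (chr19:38647649-38731583, plus strand) had 25364, 25280, 39690 and 48077 counts, with log2 ratios of -0.04 (-0.06 to -0.01) and 0.07 (0.05 to 0.09). Neither came near 1.5-fold in a line.

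MYL9 (chr20:36541484-36551447, plus strand), whose product is phosphorylated when myosin II is activated, was scarce, with 270, 229, 179 and 257 counts. It was lower with siLINC00622 in SK-MEL-28, at a log2 ratio of -0.27 (-0.53 to -0.01), and higher in A375, at 0.31 (0.03 to 0.60). TAGLN (chr11:117199321-117204782, plus strand) was scarcer still, with 19, 22, 153 and 169 counts. The intervals of its log2 ratio, 0.16 (-0.77 to 1.15) and -0.07 (-0.39 to 0.26), both include 0. TAGLN overlaps PCSK7 on the opposite strand, which had 599, 661, 2114 and 2353 counts, so its values are uncertain.

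**Figure D3:**
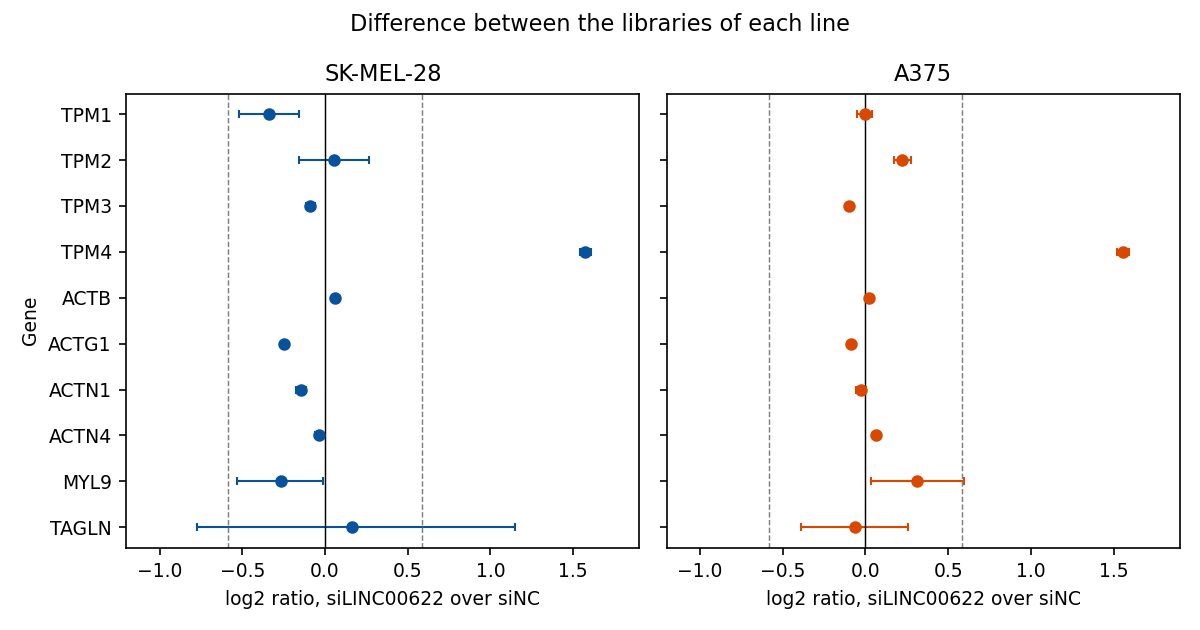
Log2 ratio of siLINC00622 over siNC for the 10 genes, with SK-MEL-28 on the left and A375 on the right. Points are ratios of scaled counts from 1 library per treatment, bars are 95% counting intervals, and dashed lines mark 1.5-fold. TPM4 stands at 1.57 and 1.56, and the other 9 genes lie between -0.34 and 0.16 in SK-MEL-28 and between -0.10 and 0.31 in A375.

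Counted over the 10 genes, 1 was past 1.5-fold higher in each line, TPM4, and 0 were past 1.5-fold lower. Among all genes past the count filter, 4.56% of 15442 were past 1.5-fold higher and 6.49% past it lower in SK-MEL-28. The shares in A375 were 4.52% and 4.34% of 16021. Since these contrasts chose the set, nothing is read from the counts. The median log2 ratio of the 10 genes was -0.06 and 0.01, and over all genes it was -0.004 and 0.004.

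The wider filament machinery was described with 11 lists, among them myosin II, capping proteins, crosslinkers, cofilin regulators, nucleators and focal adhesion proteins. Of their 140 symbols, 127 were listed, and 125 in SK-MEL-28 and 126 in A375 passed the count filter. In SK-MEL-28, 1 of the 125 was past 1.5-fold higher (0.8%, beside 4.56% of all genes) and 5 past it lower (4%, beside 6.49%). In A375, 6 of 126 were past it higher (4.76%, beside 4.52%) and 0 past it lower (beside 4.34%). The lists include the 10 genes. TPM4, which was chosen on these contrasts, is the 1 gene counted higher in SK-MEL-28 and 1 of the 6 in A375. These shares are therefore a description. The list medians were -0.01 and 0.10. TPM4 was the 1 list gene past 1.5-fold in the same direction in both lines.

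**Figure D4:**
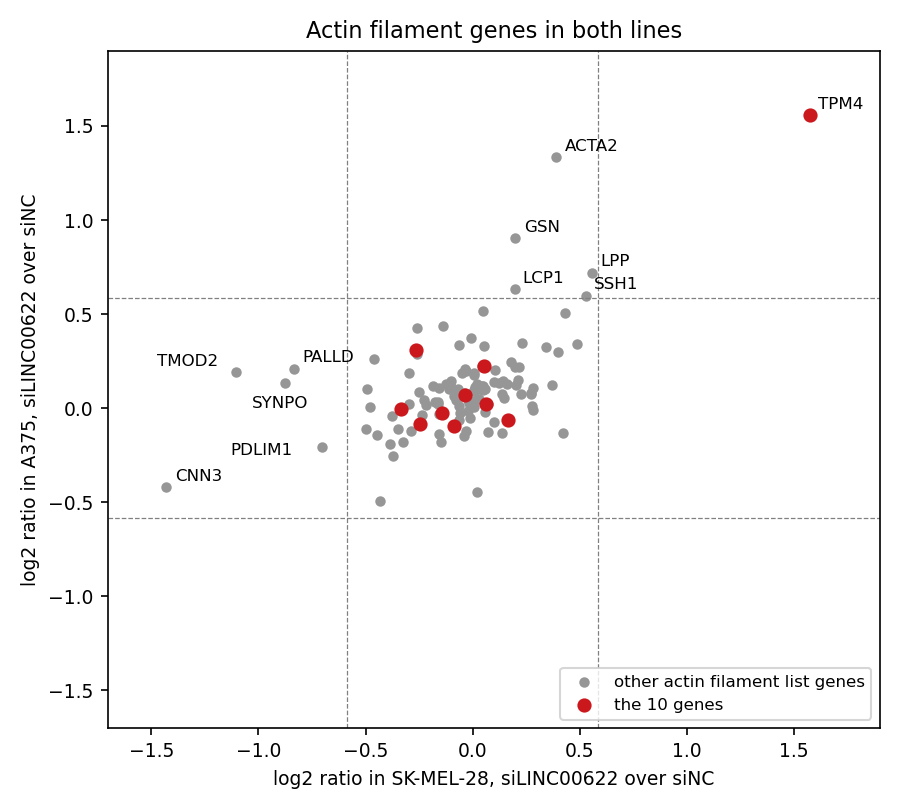
Log2 ratio of siLINC00622 over siNC in SK-MEL-28 (horizontal axis) against A375 (vertical axis) for the actin filament genes that passed the count filter in both lines, with 1 point per gene and dashed lines at 1.5-fold. TPM4 is at the upper right alone, at 1.57 and 1.56, the labelled genes at the left are past 1.5-fold lower in SK-MEL-28 only, and GSN, LCP1, LPP, SSH1 and ACTA2 are past 1.5-fold higher in A375 only.

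The genes past 1.5-fold lower in SK-MEL-28 encode proteins that bind filaments or alpha-actinin. CNN3, an actin-binding calponin of non-muscle cells, had 6604, 2505, 8102 and 7008 counts, with log2 ratios of -1.43 (-1.50 to -1.36) and -0.42 (-0.47 to -0.37). TMOD2, a tropomodulin, which caps pointed ends by binding actin and tropomyosin, had 801, 380, 656 and 866 counts, with log2 ratios of -1.10 (-1.29 to -0.93) and 0.19 (0.04 to 0.34). CNN3 was lower in both lines, and TMOD2 was slightly higher in A375. PALLD, the palladin gene of stress fibre crosslinking, had 4216, 2418, 575 and 769 counts, with log2 ratios of -0.83 and 0.21. SYNPO, an actin-bundling protein gene, had 131, 72, 1988 and 2518 counts, with log2 ratios of -0.88 and 0.13. PDLIM1, a LIM protein that binds alpha-actinin, had 650, 407, 2142 and 2147 counts, with log2 ratios of -0.70 and -0.21.

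Another set of genes was past 1.5-fold in A375. GSN, the gene of gelsolin, which severs and caps filaments, had 17280, 20274, 4415 and 9551 counts, with log2 ratios of 0.20 (0.17 to 0.23) and 0.90 (0.85 to 0.96). LPP, a focal adhesion LIM protein, had 2862, 4308, 1312 and 2500 counts, with log2 ratios of 0.56 and 0.72. SSH1, a phosphatase that activates cofilin, had 8938, 13166, 6628 and 11597 counts, with log2 ratios of 0.53 and 0.60. These 3 genes had a positive ratio in both lines, with LPP and SSH1 just under 1.5-fold in SK-MEL-28. LCP1, the L-plastin gene, had 251, 294, 87 and 157 counts, with log2 ratios of 0.20 (-0.05 to 0.45) and 0.63 (0.26 to 1.04). ACTA2, the actin of smooth muscle, had 7, 10, 37 and 111 counts, and its log2 ratio in A375 was 1.33 (0.83 to 1.95).

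Within the myosin II list (18 genes, 0 past 1.5-fold in either line), the genes with the largest mean absolute log2 ratio were a heavy chain, a phosphatase subunit and a kinase. MYH14, a non-muscle myosin heavy chain, had log2 ratios of 0.43 and 0.50, PPP1CB, the catalytic subunit of myosin phosphatase, 0.34 and 0.32, and ROCK1, a kinase that acts on the light chain, -0.45 and -0.14. In the nucleator list (21 genes, 0 past 1.5-fold), the formin DIAPH3 had log2 ratios of -0.43 and -0.50 and DIAPH1 -0.38 and -0.19. MYH14 and PPP1CB were higher, and ROCK1 and both formins lower, in each line. SSH2, a further cofilin phosphatase, had log2 ratios of 0.40 and 0.30, CFL2, a cofilin gene, 0.23 and 0.35, and FHL2, a LIM protein of adhesions, 0.49 and 0.34.

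The transcription factors that act at CArG boxes differed less. SRF had 1511, 1878, 2163 and 2480 counts, with log2 ratios of 0.28 (0.18 to 0.38) and -0.01 (-0.10 to 0.07). Its actin-sensing cofactors MRTFA and MRTFB had log2 ratios of -0.11 and 0.10, and of -0.16 and 0.03. None of the 3 was past 1.5-fold in a line, beside 4.34% to 6.49% of all genes per line and direction. Nothing is read from a count over 3 genes. TAGLN2, a widely expressed transgelin, had log2 ratios of -0.29 and 0.02.

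The 5 well-counted genes whose pair of ratios was nearest to that of TPM4 were STX12, MESD, PRMT6, BICD2 and TDG. STX12, the gene of an endosomal syntaxin, was the nearest, with 940, 2283, 684 and 1884 counts and log2 ratios of 1.25 (1.14 to 1.36) and 1.25 (1.13 to 1.38), at a Euclidean distance of 0.449. BICD2, a dynein adaptor gene, had 2729, 5243, 2681 and 5685 counts, log2 ratios of 0.91 and 0.87 and a distance of 0.952. STX12 in both lines, and PRMT6 and TDG in SK-MEL-28, reached 1000 counts in the siLINC00622 library only. MESD, a chaperone gene, had log2 ratios of 1.30 and 0.73 (distance 0.872), PRMT6, an arginine methyltransferase gene, 1.37 and 0.66 (0.920), and TDG, a DNA glycosylase gene, 1.34 and 0.61 (0.974). None of the 5 is in the actin filament lists, and the distance is over 2 values a gene, 1 per line. Their likeness to TPM4 is what chose them and is a description.

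The difference between the lines was not used to choose the genes and was tested. All 4 libraries entered edgeR's quasi-likelihood test with the treatment as a term, which leaves 1 residual degree of freedom, and p-values were adjusted by the Benjamini-Hochberg method over 16310 genes. Of the 10 genes, 8 had an adjusted p under 0.05, 3 of them higher and 5 lower in SK-MEL-28. Of all genes, 68.8% passed, 33.8% higher and 35.0% lower in SK-MEL-28, so the number of calls among the 10 was near the background. The 2 libraries of a line differ in siRNA, and nothing says that they came from separate cultures, so the p-values measure only the spread left after the treatment term.

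TPM1 and TPM2 differed most. By edgeR, TPM1 was 13.6-fold lower in SK-MEL-28, a log2 difference of -3.77 (SE 0.12, adjusted p = 1.24e-06), and TPM2 was 15.7-fold lower, at -3.97 (SE 0.11, adjusted p = 6.30e-07). The libraries of the lines did not overlap: the FPKM of TPM1 was 1.22 and 0.953 in SK-MEL-28 against 16.6 and 16.4 in A375, and that of TPM2 3.37 and 3.47 against 55.9 and 64.9. TPM3 was also lower in SK-MEL-28, at a log2 difference of -0.56 (SE 0.07, edgeR adjusted p = 0.000516). TPM4, by contrast, was slightly higher there, at 0.29 (SE 0.08, edgeR adjusted p = 0.0122). Its FPKM was 21.4 and 63.1 against 19.7 and 57.6, higher in SK-MEL-28 within each treatment. The values of the lines overlapped only across treatments. SK-MEL-28 thus carried a pool of TPM3 and TPM4 with 7.10% of TPM1 and TPM2 in the siNC library, and A375 a pool in which these made up 46.4%. By CPM the shares were 3.13% and 25.1%, and per kilobase of principal transcript 4.62% and 32.0%, so A375 had the larger share by each measure.

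Of the remaining genes, TAGLN was 6.94-fold lower in SK-MEL-28, at a log2 difference of -2.79 (SE 0.24, edgeR adjusted p = 7.09e-05). PCSK7, which overlaps it on the opposite strand, was also lower there, with 599, 661, 2114 and 2353 counts. Whether reads of PCSK7 are part of the TAGLN counts was not tested. ACTN4 was lower as well, at -0.62 (SE 0.08, adjusted p = 0.000394 by edgeR). The actins were higher, ACTG1 at 0.53 (SE 0.07, adjusted p = 0.000747 by edgeR) and ACTB at 0.29 (SE 0.07, adjusted p = 0.00617 by edgeR). ACTN1 at 0.02 (SE 0.08, edgeR adjusted p = 0.831) and MYL9 at 0.38 (SE 0.20, edgeR adjusted p = 0.134) did not pass.

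**Figure D5:**
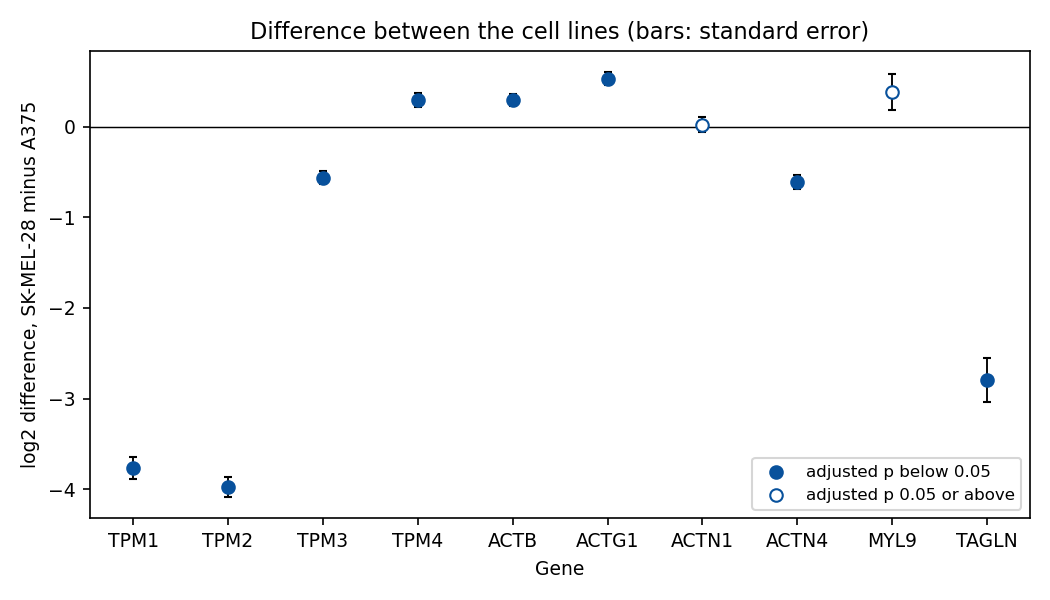
Log2 difference of the 10 genes between the cell lines, SK-MEL-28 minus A375, from edgeR over 4 libraries with the treatment as a term. Bars are standard errors, and filled points have an adjusted p under 0.05. TPM1, TPM2 and TAGLN lie between -3.97 and -2.79, and the other 7 genes between -0.62 and 0.53.

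The calls of TPM4 and ACTB depended on the fit. The adjusted p of TPM4 was 0.703 without the treatment term and 0.163 with library totals in place of TMM, and that of ACTB was 0.101 with library totals. Library totals also moved the median log2 difference of all genes from -0.03 to -0.20, and the share of calls that were higher in SK-MEL-28 from 49.1% to 40.6%.

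Of the 127 list genes, 103 differed between the lines, 56 higher and 47 lower in SK-MEL-28 (81.1%, beside 68.8% of all genes). A share of all genes at like counts was not taken here either. FSCN1, a filament-bundling fascin gene, had 207, 202, 15390 and 17959 counts and was lower in SK-MEL-28, at a log2 difference of -6.17 (adjusted p = 3.17e-07 by edgeR). SYNPO was lower too, at -4.31 (edgeR adjusted p = 1.01e-05), and SYNPO2, its relative, with 1486, 1019, 7 and 9 counts, was higher, at 7.42 (edgeR adjusted p = 7.38e-07). PALLD at 2.43 and CALD1, the caldesmon gene, at 1.80 were higher in SK-MEL-28 as well, with edgeR adjusted p-values of 0.000132 and 8.85e-06. FSCN1 and SYNPO2 were chosen after their values were seen.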

How the data were processed

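The 4 RNA-Seq libraries, 1 for each pairing of SK-MEL-28 or A375 with siNC or siLINC00622, were grouped by the line and treatment in their labels. The authors deposited 1 table with whole-number counts per gene, without normalization. The authors deposited CPM values, scaled to the library, and FPKM values, scaled to the library and the gene length. The authors deposited TPM values too, which were not used. The submitters' processing notes name hg19, HISAT, HISAT2, TopHat2 and Bowtie2 without versions or roles. Positions are those of GENCODE 29 on GRCh38, matched by Ensembl identifier, and are not the build of the counts.

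The genes and the gene lists were chosen with earlier results of these data known. Counts were scaled by TMM (edgeR 4.0.16, R 4.3.3) within each line on the library totals, and the prior count for ratios was 2. The 95% Clopper-Pearson intervals cover counting error only, since reads carry no molecular identifiers. At 31269923 to 36384819 counts a library they are narrow for TPM4 and wide for TAGLN. Genes needed 10 counts in 1 library of a line, and differences were counted past 1.5-fold. The treatment was not tested, because TPM4 was chosen on it. The lines were compared by edgeR's quasi-likelihood test on genes with 10 counts in 2 libraries, with Benjamini-Hochberg adjustment and a threshold of 0.05. Leaving out 1 library would leave this fit no residual degree of freedom, so none was left out. DESeq2 1.42.0, library totals, FPKM with a pseudocount of 1, a prior count of 0.5, other filters and fold limits, and copies summed were the alternatives. Named genes are the 10 genes, up to 3 per list with 100 counts or more in both lines and the largest mean absolute ratio or opposite signs past 1.5-fold, the 5 nearest to TPM4, listed copies and LINC00622. Genes of a list past 1.5-fold in 1 line, and markers, are named as well. Promoter letters are RefSeq's (GRCh38.p14), and siRNA sequences are from the study's supplement. Scripts were tested on simulated data.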

Additional observations from a re-analysis of the deposited data

Results flagged for a closer look

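Genes whose ratio went one way in SK-MEL-28 and the other way in A375, with both counting intervals apart from 0 and the same signs under library totals and DESeq2 size factors, numbered 23 in the actin filament lists, 21 lower in SK-MEL-28 and higher in A375 and 2 the other way, and 1 among the markers. The share of all genes that meet this rule was not counted, so nothing is read from the 23 or their split. The values below are those of the 9 genes that the text names or that mark a cell type. With 1 library per condition, the difference between the lines was not tested, and a library that stands apart cannot be told apart from a difference between the lines. In each of these 9 the siLINC00622 library was the lower of its pair in SK-MEL-28 and the higher in A375.

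The regulatory light chain gene MYL9 had log2 ratios of -0.27 and 0.31, given with SK-MEL-28 first here and in what follows, and the alpha-actinin gene ACTN4 -0.036 and 0.067. Among genes that bind or cap filaments beside tropomyosin, TMOD2 had -1.10 and 0.19, CALD1 -0.037 and 0.21, and ADD3, an adducin gene, -0.49 and 0.10. Among crosslinkers, PALLD had -0.83 and 0.21, and SYNPO -0.88 and 0.13. The formin gene DIAPH2 had -0.26 and 0.29, and the melanocytic marker S100B -0.59 and 0.61. TMOD2, PALLD, SYNPO and S100B were past 1.5-fold in SK-MEL-28, and of the 9 genes S100B alone was past it in A375.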

How the results depend on the processing

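Over 214 alternatives, 177 were graded as leaving a result the same, 34 moved it, 3 lost a call and 0 reversed one. For ratios and differences, the same means the same direction and side of the threshold, or within error. Counts graded the same could still change. The members called between the lines went from 8 to 6 with library totals, and the 1002 genes lower in SK-MEL-28 became 1478 without a filter. The labels carry no replicate numbers to use as a block. From FPKM with a pseudocount of 1, TPM4 had log2 ratios of 1.52 and 1.501, with SK-MEL-28 first. Its pool share, in the order used above, was 30.2%, 57.9%, 15.0% and 34.8% by CPM, 29.1%, 56.6%, 12.2% and 28.4% with listed copies, and 20.4%, 44.9%, 8.89% and 22.7% per kilobase of principal transcript, the last chosen after seeing the data. At a fold limit of 2, 2 list genes were lower in SK-MEL-28 and 2 higher in A375. Over all genes, that limit left 165 and 266 genes in SK-MEL-28 (higher, then lower), beside 154 and 134 in A375. At least 100 counts left 278 and 515, and 320 and 225. Without a filter, 1081 were higher in SK-MEL-28 and 1064 lower in A375. Counted over the 10 genes only, TPM4 was the gene past the limit and higher in each line under each of these. Between the lines, the calls lost were those of TPM4 (adjusted p = 0.703 without the treatment term and 0.163 with library totals, both by edgeR) and ACTB (0.101 with library totals). The uncalled difference of ACTN1 was -0.15 with library totals. The cause of these shifts was not tested. Low counts limit TAGLN and MYL9 among the 10 genes, whose intervals are wide.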
